A study of Homo sapiens with 24 samples.

Results

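The 50 genes described here carry out DNA replication and the repair of breaks by homologous recombination. They were chosen by name: a list of gene symbols was matched to the Ensembl gene ids of the deposited tables, and all 50 were found among 37247 ids. They fall into 8 groups by role: 11 genes of origin licensing, 6 of helicase activation, 8 of the polymerases and primase, 10 of the sliding clamp, its loader, RPA, flap removal and ligation, 4 of nucleotide supply, 2 E2F activators, 3 of chromatin at the fork and 6 of homologous repair. All 50 had enough counts to be tested, and the lowest count of any of them in any library was 62.

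Replication begins in G1, when the origin recognition complex, CDC6 and CDT1 load the ring-shaped MCM helicase onto origins. At the start of S phase CDC45 and the GINS complex turn the loaded helicase on, primase and polymerase alpha lay down primers, and polymerases delta and epsilon copy the strands on the clamp PCNA. Most of these genes are textbook targets of the E2F transcription factors, which the retinoblastoma protein holds back in resting cells, so that their messages are high in cycling cell populations.

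The cells were MDA-MB-231, established from a human breast cancer, a line that lacks the oestrogen and progesterone receptors and has a mesenchymal shape. The study compared 4 engineered lines: Control, and lines in which doxycycline turns on wild-type MRTF-A (WT) or mutant forms that the titles call dSAP and dSRF without spelling the names out. MRTF-A is a coactivator of the transcription factor SRF that responds to the state of the actin cytoskeleton. Cells grew either on plastic plates (2D) or, as 3D culture, atop matrigel, which is an extract of basement membrane. The 8 combinations of line and culture have 3 libraries each, 24 in all. Every line, Control included, is labelled as given doxycycline at 1 ug/ml for 72 h, so the drug is shared by all groups. The labels do not say what the Control line carries, whether each line is a single clone, or whether replicates were separate cultures, and p-values here measure only the spread between these libraries. In bulk RNA, fewer cells in S phase and less of a message per cell cannot be told apart.

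Levels below are TMM-normalised CPM (counts scaled to library size) in replicates 1, 2 and 3 of a group. Differences are log2 fold changes from edgeR, ± the standard error that its fit gives (3 libraries per group). A gene is called, and is said to have risen or fallen, where its Benjamini-Hochberg adjusted p over the 14986 genes tested is under 0.05.

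Total counts ran from 13968773 to 23023300 per library. The line's expected markers VIM, CD44, EGFR and CAV1 were present in all 24 libraries. Of the markers expected to be low, ESR1 was at 0 in 20 libraries and PGR in 22, and CDH1 ran from 0.0243 to 1.98 TPM. EPCAM, also expected to be low, was not, at 24.96 to 263.7 TPM. Of the immune markers, PTPRC was at 0 in 21 libraries and CD3E in 18, while CD14 ran from 3.42 to 18.2 TPM. Of the fibroblast markers, DCN was at 0 in 22 libraries, while COL1A1, PDGFRB and LUM were present in all, and the 4 together summed to 16.7 to 113 TPM in 3D dSRF and 17.7 to 49.7 TPM in the other groups. The genotype field disagrees with the title in 16 of 24 libraries, and MRTFA was used to check the titles. It stood at 28.8 to 39.1 CPM in the libraries titled Control. In plates it was 4517 to 4878 CPM in WT, 8765 to 9628 in dSAP and 3170 to 3361 in dSRF. On matrigel it was 4444 to 4610 CPM in WT and 10168 to 10716 in dSAP. The MRTF-A lines thus differ in MRTFA level as well as in form, and these cannot be told apart here. The level does not show which form a line carries. Libraries of the MRTF-A lines held 3170 CPM or more, except the library labelled 3D dSRF 1, which held 664 CPM. That library stood apart in the members too, as given below, and the spread of the fit, which all comparisons share, was wider with it. On the same 14986 genes the biological coefficient of variation was 13.1% with all libraries, 6.62% without it, and 11.8% and 12.2% without 3D dSRF 2 and 3D dSRF 3. Each count of called members is therefore given with it and without it, where the fit covered 15246 genes. In each comparison, all the members called with the library were also called without it.

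Many members carry E2F motifs just ahead of their start sites. In the RefSeq promoter table (GRCh38.p14), 44 of the 50 had an entry, 58 promoters in all, and the 250 bases before each start were searched on both strands for TTTCCCGC, TTTCGCGC, TTTGCCGC and TTTGGCGC, overlaps allowed. A match stood in 17 of the 58 promoters (29.3%), against 2.8% of all 35116 promoters of that length, and 16 members had one. Promoters of 1 gene can overlap, so they are not independent. MCM4, MCM5, GINS4, POLD3, RPA2 and RPA3 had no entry. The NF-Y motif CCAAT stood in 55.2% of the member promoters and 32.0% of all, and the Sp1 motif GGGCGG in 67.2% and 42.6%. The CArG box, the element that SRF binds, was in none of the 58 and in 1.2% of all. At so low a share, none among 58 promoters does not show that the members lack it, and only 250 bases were searched. The mitotic CHR element (TTTGAA or TTCGAA) was in 3.4% and 14.3%. A match is a run of letters, not a shown binding site. The promoters of 6 members are printed because they span the roles described below and hold matches: those of the E2F1 activator itself, of the helicase subunit MCM6, which has the most matches, of the clamp PCNA, of the ligase LIG1, of the thymidylate synthase TYMS, and of POLA2, a member that rose where most others fell. PCNA has a further promoter entry, at chr20:5119959-5120208, which holds no match and is not printed. Each promoter is given 5′ to 3′ on the gene's strand with the matches in capitals. E2F1 lies on the minus strand at chr20:33686386-33686635, MCM6 on the minus strand at chr2:135876444-135876693, PCNA on the minus strand at chr20:5126623-5126872, LIG1 on the minus strand at chr19:48170345-48170594, TYMS on the plus strand at chr18:657403-657652 and POLA2 on the plus strand at chr11:65261712-65261961.
E2F1: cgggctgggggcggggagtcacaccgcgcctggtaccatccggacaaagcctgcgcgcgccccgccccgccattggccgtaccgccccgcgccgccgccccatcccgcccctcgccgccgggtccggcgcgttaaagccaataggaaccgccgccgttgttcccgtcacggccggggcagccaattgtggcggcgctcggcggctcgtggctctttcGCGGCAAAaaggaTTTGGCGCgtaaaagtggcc
MCM6: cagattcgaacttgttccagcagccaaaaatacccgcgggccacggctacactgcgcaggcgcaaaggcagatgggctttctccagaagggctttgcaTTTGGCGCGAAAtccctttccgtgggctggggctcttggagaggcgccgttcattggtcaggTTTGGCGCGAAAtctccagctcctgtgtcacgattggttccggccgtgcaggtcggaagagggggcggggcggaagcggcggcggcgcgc
PCNA: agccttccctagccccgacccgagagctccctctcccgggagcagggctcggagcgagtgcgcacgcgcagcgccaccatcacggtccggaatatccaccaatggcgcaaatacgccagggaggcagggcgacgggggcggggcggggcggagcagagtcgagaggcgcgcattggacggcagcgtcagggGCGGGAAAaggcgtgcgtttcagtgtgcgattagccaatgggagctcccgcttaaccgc
LIG1: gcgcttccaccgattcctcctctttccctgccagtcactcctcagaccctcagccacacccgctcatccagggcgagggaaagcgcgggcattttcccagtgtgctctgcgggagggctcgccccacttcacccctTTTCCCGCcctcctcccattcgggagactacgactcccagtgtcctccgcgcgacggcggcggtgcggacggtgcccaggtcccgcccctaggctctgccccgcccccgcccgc
TYMS: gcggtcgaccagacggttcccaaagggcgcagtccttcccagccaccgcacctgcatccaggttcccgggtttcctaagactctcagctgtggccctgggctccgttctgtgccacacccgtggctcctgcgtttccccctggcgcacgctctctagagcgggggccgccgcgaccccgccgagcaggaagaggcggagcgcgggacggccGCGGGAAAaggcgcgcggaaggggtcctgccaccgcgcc
POLA2: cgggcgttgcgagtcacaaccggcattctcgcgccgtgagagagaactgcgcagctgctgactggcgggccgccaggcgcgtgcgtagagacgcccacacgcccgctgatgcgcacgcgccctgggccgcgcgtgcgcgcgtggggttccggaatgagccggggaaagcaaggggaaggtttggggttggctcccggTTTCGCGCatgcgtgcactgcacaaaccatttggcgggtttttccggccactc
The 4 matches of MCM6 form 2 overlapping pairs, with first bases 152, 148, 90 and 86 bases before the start. The matches of E2F1 begin 33 and 20 bases before the start, that of PCNA 59, that of POLA2 53, that of TYMS 39 and that of LIG1 114 bases before it.

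The summed message of the 50 members was highest in Control on matrigel, and the libraries 3D dSRF 2 and 3D dSRF 3 held the least. In 2D Control it was 3861, 3743 and 3835 CPM, and in 3D Control 5587, 6109 and 5875 CPM. It was lower in each MRTF-A line than in Control of the same culture, with no overlap between groups: 2829, 2888 and 2889 CPM in 2D WT, 3473, 3134 and 3157 in 2D dSAP, and 2366, 2429 and 2523 in 2D dSRF. On matrigel WT held 4989, 5033 and 5094 CPM and dSAP 4987, 5048 and 5139, close to each other and above every plate library. The 3D dSRF libraries held 2917, 1530.2 and 1590 CPM. The first of these, the library labelled 3D dSRF 1, lay above 2D dSRF and the others below it, so that group has no single level. As shares of the 2D Control mean, the group means were 75.2% in 2D WT, 85.4% in 2D dSAP, 64.0% in 2D dSRF, 153.6% in 3D Control, 132.1% in 3D WT, 132.7% in 3D dSAP and 52.8% in 3D dSRF. The last is near none of its libraries, which stood at 76.5%, 40.1% and 41.7%.

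**Figure D1:**
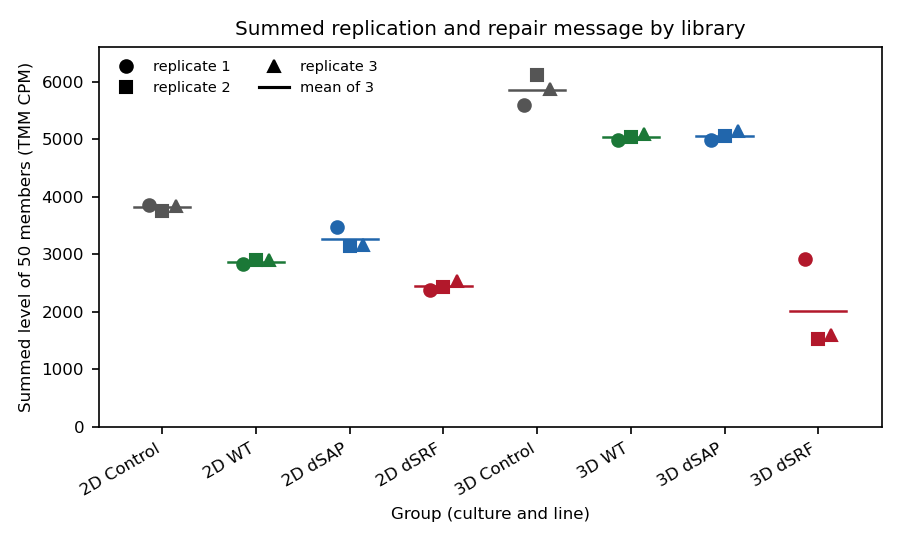
Summed level of the 50 members in CPM (vertical axis, from 0) in each of the 24 libraries, by group; symbols mark the replicate number and the horizontal lines the mean of 3. In 3D dSRF replicate 1 stands at 2917 CPM and the other libraries at 1530.2 and 1590 CPM.

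Between genes, levels can be compared only per length, in TPM (abundance scaled for transcript length and depth). In 2D Control the lowest members were the activator E2F2 at 6.58 ± 0.61 TPM (mean ± SD, n = 3), the origin recognition subunit ORC1 at 7.12 ± 0.38 and the GINS subunit GINS4 at 7.59 ± 1.60. The highest were TYMS, which makes thymidylate, at 321 ± 9.47 TPM, PCNA at 207 ± 1.196 and RRM1, the large subunit of ribonucleotide reductase, at 172 ± 9.84. Subunits of a single ring differed in message: within the MCM helicase the mean TPM in 2D Control was 76.3 for MCM2, 139.2 for MCM3, 59.3 for MCM4, 64.9 for MCM5, 67.7 for MCM6 and 170.1 for MCM7. MCM4, MCM5, MCM6 and MCM2 lie near each other in that order, MCM3 and MCM7 well above them.

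Across libraries the members moved together. The correlation of each member's log2 CPM with the mean of the other 49 over the 24 libraries had a median of 0.966, and 43 members were above 0.9. These libraries share 8 groups and the odd library, so this is a description of the pattern and not a test. Only RPA2 (-0.199), RPA3 (0.328), POLA2 (0.711) and BRCA1 (0.761) lay below 0.8. Those 4 are taken up again below.

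**Figure D2:**
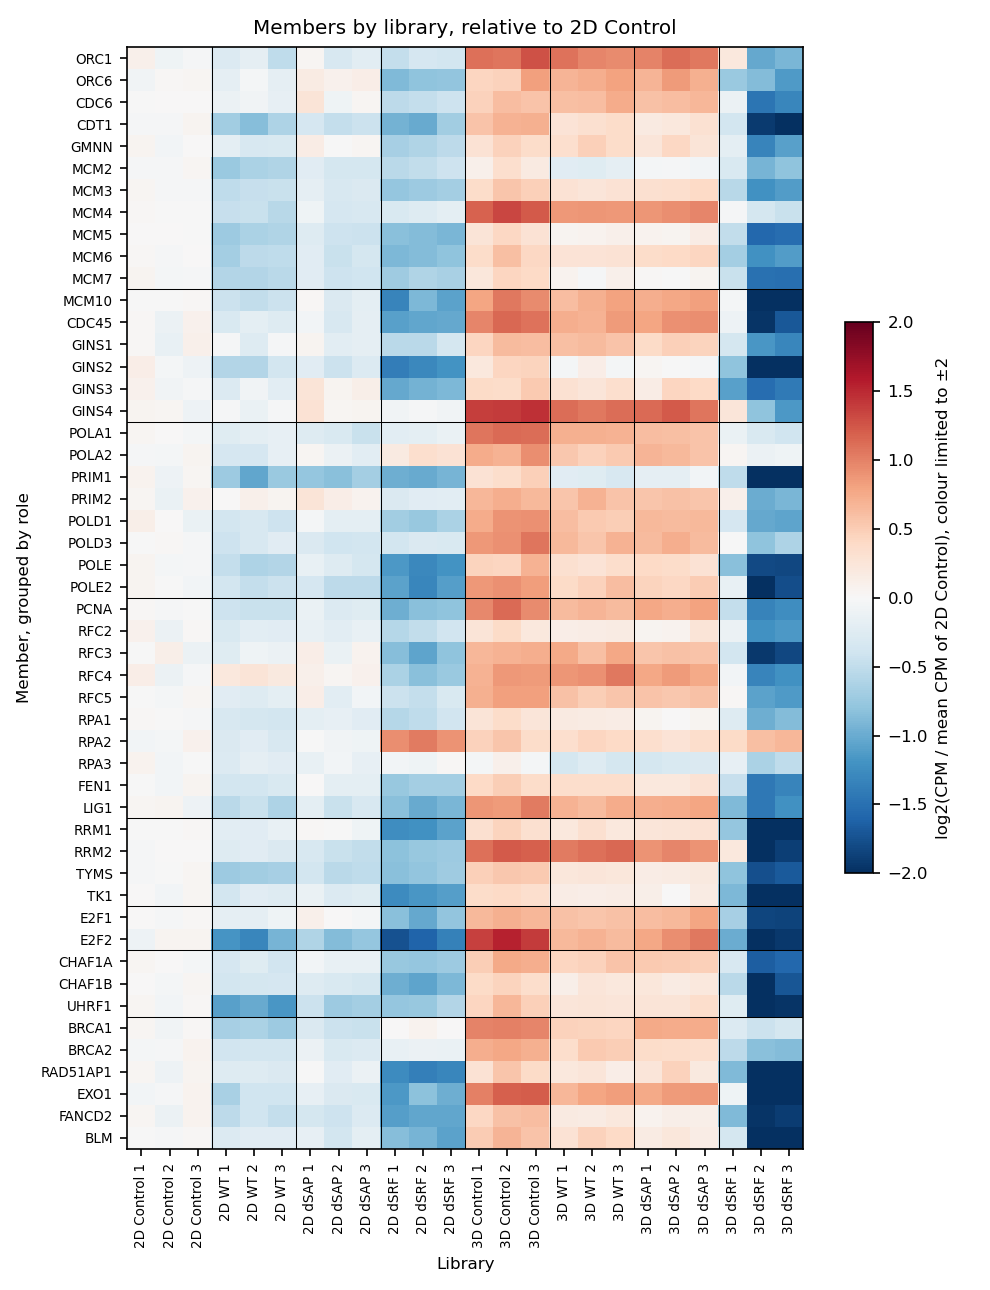
Each member (rows, grouped by role) in each library (columns, by group) as log2 of its CPM over its mean CPM in 2D Control, blue lower and red higher, with colours limited to a change of 2. Most rows are red in 3D Control, 3D WT and 3D dSAP and blue in dSRF, where RPA2 is red in every library.

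Culture on matrigel raised replication and repair messages in the Control line. Of the 50 members, 36 rose and none fell, against 23% of all genes tested that rose. Their median log2 difference was 0.58, against 0.00 over all genes. Without the odd library 49 rose (28.8% of all genes). The 3 matrigel libraries lay above all 3 plate libraries for 49 members, against 31.1% of all genes. By role, 7 of 11 licensing genes rose, 5 of 6 of helicase activation, 7 of 8 of the polymerases and primase, 8 of 10 of the clamp, RPA and ligation group, 2 of 4 of nucleotide supply, both E2F activators, 1 of 3 at fork chromatin and 4 of 6 of homologous repair. The share of counts from the mitochondrial genome moved with this contrast, at 0.94% to 1.45% in 3D Control, WT and dSAP and 0.398% to 0.9335% in the 4 plate groups, and its part in the result was not tested.

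The largest rise was that of E2F2, an activator E2F. Its level was 15.99, 17.7 and 17.7 CPM in plates and 44.02, 49.6 and 44.99 CPM on matrigel, a difference of 1.43 ± 0.18 (edgeR adjusted p = 2.46e-06). The groups lie far apart. GINS4, part of the complex that switches on the helicase, went from 14.04, 13.9 and 12.7 CPM to 35.2, 35.6 and 37.3 CPM (1.41 ± 0.20). MCM4, a helicase subunit, stood at 112, 110.4 and 109.5 CPM and then 249.9, 278 and 260.0 CPM (1.25 ± 0.08, edgeR adjusted p = 3.88e-10). In neither gene did the cultures overlap. RRM2, the regulated small subunit of ribonucleotide reductase, read 141, 144 and 144 CPM in plates and 307, 333 and 327 CPM on matrigel (1.18 ± 0.35). ORC1, the subunit of the origin recognition complex that varies most over the cell cycle, read 13.8, 12.01 and 12.5 CPM and 27.5, 26.7 and 30.9 CPM (1.15 ± 0.20). PCNA, the clamp that tethers polymerases to DNA, read 119.9, 117 and 118 CPM and 230.1, 260.3 and 228 CPM (1.02 ± 0.14). In all 3 genes the matrigel libraries lie far above the plate libraries.

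Not every member took part. RPA3, the smallest subunit of the single-strand binding protein RPA, read 28.8, 26.4 and 27.2 CPM in plates and 26.9, 29.5 and 26.7 CPM on matrigel, and the ranges overlap (0.01 ± 0.09, edgeR adjusted p = 0.928). MCM2 read 129.7, 129 and 135 CPM and 141, 165 and 149 CPM. Its libraries do not overlap, but the difference of 0.21 ± 0.10 was not called with all libraries (edgeR adjusted p = 0.104) and was called without the odd one (edgeR adjusted p = 0.000839). The same held for TK1, the S-phase thymidine kinase, at 121, 115 and 123 CPM and 155, 157 and 152 CPM, where the edgeR adjusted p was 0.291 with that library and 1.3e-07 without it.

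The WT and dSAP lines showed the same kind of difference between cultures. In WT 41 members rose on matrigel and none fell (24.4% of all genes rose; median 0.78; 49 rose without the odd library, against 29.9% of all genes), and in dSAP 34 rose and none fell (24.2%; median 0.62; 49 rose and 1 fell without it, against 29.9% and 29.3%). E2F2 again changed most, from 7.56, 6.92 and 8.98 to 26.8, 27.7 and 26.5 CPM in WT (1.79 ± 0.19) and from 11.4, 9.45 and 10.1 to 29.1, 32.6 and 35.7 CPM in dSAP (1.65 ± 0.19). MCM4 rose from 80.2, 81.3 and 75.1 to 202, 205 and 202 CPM in WT (1.36 ± 0.08). In both genes the matrigel libraries are all above the plate libraries. UHRF1, which keeps DNA methylation at the fork, read 86.9, 90.8 and 81.7 CPM in 2D WT and 218, 221 and 216 CPM in 3D WT (1.34 ± 0.30, edgeR adjusted p = 0.000985). CDT1, the loader of the helicase, read 19.8, 17.7 and 20.8 CPM and 38.5, 39.9 and 41.3 CPM in the same groups (1.04 ± 0.26). BRCA1, which directs breaks to homologous repair, read 51.9, 47.1 and 46.6 CPM in 2D dSAP and 108, 106 and 106 CPM in 3D dSAP (1.14 ± 0.05, edgeR adjusted p = 1.55e-12). Each of these separates the cultures without overlap. The comparisons of culture in the 4 lines share no libraries, though 1 fit gives the spread for all.

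In dSRF no member rose on matrigel. With all libraries 7 members fell (9.84% of all genes fell; median -0.27). For 44 members the cultures overlapped, and in 6 the matrigel libraries lay below all plate libraries (13.4% of all genes). Both shares of members are near the background with all libraries. A fit on the libraries of these 2 groups alone called none of the 50 by edgeR (0% of all genes). Leaving out the odd library, 49 fell (28.4% of all genes fell; median -0.71). This comparison is given library by library at the end of the results on dSRF.

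**Figure D3:**
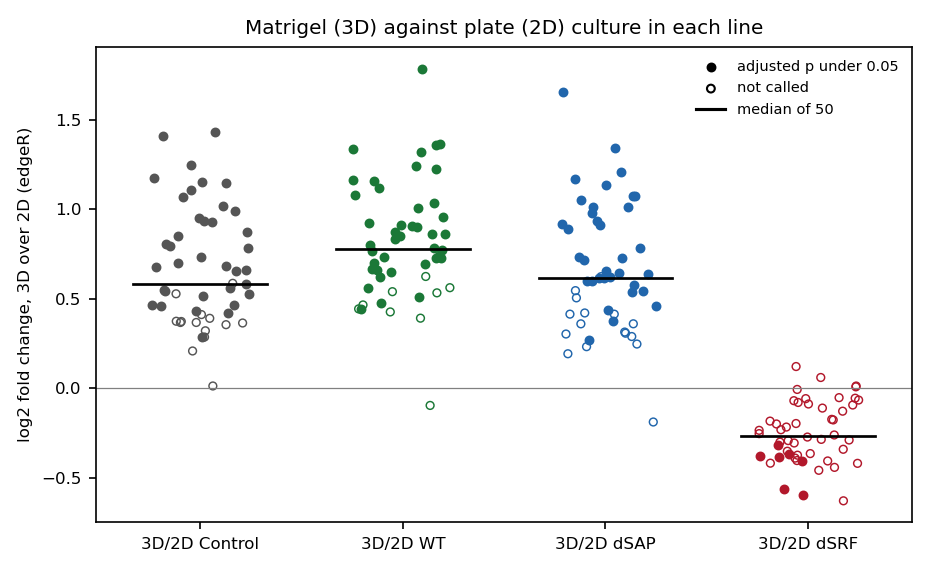
log2 fold change of 3D over 2D for the 50 members (points) in each line (horizontal axis), filled where called, with the median as a line; points are spread sideways only to be seen. The median is 0.58 for Control, 0.78 for WT, 0.62 for dSAP and -0.27 for the dSRF line.

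In plates, the line with wild-type MRTF-A held less of these messages than Control. Of 50 members 23 fell and none rose, against 19.2% of all genes that fell and 20.1% that rose, with a median difference of -0.33. Without the odd library 42 fell and 1 rose (26.6% of all genes fell). Without the library 2D WT 1 the count was 14. In 44 members the 3 WT libraries lay below all 3 Control libraries, against 30.2% of all genes, and in 1 they lay above. Origin licensing held 7 of the 23, the polymerases and primase 5, the clamp, RPA and ligation group 5 and homologous repair 3. Nucleotide supply, the E2F activators and fork chromatin held 1 each, and helicase activation none. The replication-dependent histone genes, which are expressed in S phase, made up 0.345% to 0.363% of counts in 2D Control and 0.179% to 0.191% in 2D WT over 63 genes, and their part in the result was not tested.

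Among licensing genes, MCM2 read 129.7, 129 and 135 CPM in Control and 78.6, 84.3 and 86.7 CPM in WT (-0.66 ± 0.10, edgeR adjusted p = 4.24e-05). MCM6 read 137, 132 and 135 CPM and 84.2, 93.4 and 94.6 CPM (-0.57 ± 0.10). Both fell, with no overlap. CDT1 read 31.3, 31.4 and 33.003 CPM and 19.8, 17.7 and 20.8 CPM (-0.71 ± 0.26). MCM4 read 80.2, 81.3 and 75.1 CPM in WT, all below its Control libraries given above (-0.49 ± 0.08).

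At the fork, PRIM1, the catalytic subunit of primase, read 16.3, 14.4 and 15.98 CPM in Control and 9.42, 7.62 and 9.30 CPM in WT (-0.83 ± 0.28, edgeR adjusted p = 0.0234). POLE, the leading-strand polymerase, read 115, 109 and 110.0 CPM and 80.3, 72.3 and 74.2 CPM (-0.56 ± 0.17). LIG1, which joins Okazaki fragments, read 50.1, 50.1 and 45.3 CPM and 33.5, 35.6 and 31.6 CPM (-0.53 ± 0.10). All 3 genes have the WT libraries below the Control libraries. POLA1, the catalytic subunit of polymerase alpha, differed less: 62.98, 61.2 and 59.3 CPM in Control and 51.8, 53.4 and 54.8 CPM in WT (-0.20 ± 0.06).

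TYMS read 210.2, 213 and 219 CPM in Control and 129.7, 132 and 136 CPM in WT (-0.69 ± 0.15, edgeR adjusted p = 0.00109) and was the 1 nucleotide gene called. E2F2 read 7.56, 6.92 and 8.98 CPM in WT, below each Control library (-1.13 ± 0.19), and had the largest fall. E2F1, its sister activator, read 113, 111 and 114 CPM in Control and 99.5, 99.3 and 106 CPM in WT, a small difference that was not called (-0.15 ± 0.19, edgeR adjusted p = 0.568). UHRF1 read 188, 176 and 186 CPM and 86.9, 90.8 and 81.7 CPM (-1.09 ± 0.29), the next largest fall. In homologous repair BRCA1 read 65.5, 60.4 and 64.8 CPM in Control and 40.1, 41.2 and 38.3 CPM in WT (-0.67 ± 0.05, edgeR adjusted p = 1.5e-09), and BRCA2, a core factor of homologous repair, read 72.7, 73.9 and 78.4 CPM and 57.3, 58.1 and 58.01 CPM (-0.38 ± 0.07). FANCD2, a protein of the Fanconi pathway, read 45.7, 40.96 and 46.3 CPM and 30.96, 33.8 and 31.8 CPM (-0.46 ± 0.17).

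The dSAP line lay between Control and WT in plates for many members. In it 11 members fell and none rose (15.4% of all genes fell; median -0.21), a share of members near that background with all libraries. The dSAP libraries lay below all Control libraries in 29 members and above them in 1, against 26.6% and 26.8% of all genes. Without the odd library 29 fell and 1 rose (23.3% of all genes fell). The count was less stable than in WT: it was 6 without 2D Control 1 or 2D Control 2, 5 without 2D Control 3 or 2D dSAP 3, and 3 without 2D dSAP 2. The 11 were MCM2, MCM4 and MCM6, POLA1, PRIM1 and POLD3, LIG1, TYMS, E2F2, BRCA1 and BRCA2. PRIM1 read 9.13, 8.74 and 9.73 CPM, the lowest of these relative to Control (-0.76 ± 0.28). E2F2 read 11.4, 9.45 and 10.1 CPM (-0.73 ± 0.19) and TYMS 165, 147 and 150.4 CPM (-0.47 ± 0.15). POLD3, an accessory subunit of polymerase delta, read 46.8, 47.96 and 46.2 CPM in Control and 38.6, 35.5 and 36.6 CPM in dSAP (-0.35 ± 0.13, edgeR adjusted p = 0.0392). BRCA1 read 51.9, 47.1 and 46.6 CPM (-0.39 ± 0.05, edgeR adjusted p = 4.36e-06). In each of these genes the dSAP libraries lie below all Control libraries. The histone share was 0.199% to 0.2197% in 2D dSAP.

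The dSAP and WT comparisons share their Control libraries, so the lines were also set against each other. In plates 4 members were called higher in dSAP than in WT and none lower (5.09% of all genes were higher and 7.71% lower; median 0.20). That share of members is near the background with all libraries. In 30 members the dSAP libraries lay above all WT libraries and in 3 below (20.3% and 22.3% of all genes). The 4 called were MCM2 (0.35 ± 0.10), GINS3 (0.32 ± 0.10), BRCA1 (0.28 ± 0.05) and RPA2 (0.22 ± 0.07). For MCM2 the levels were 112, 102 and 103 CPM in dSAP against 78.6, 84.3 and 86.7 CPM in WT, and for BRCA1 51.9, 47.1 and 46.6 CPM against 40.1, 41.2 and 38.3 CPM. These are small differences without overlap. The count was 29 higher and 2 lower without the odd library (12.7% and 15% of all genes), 2 without 2D dSAP 2, and 1 without any of 2D WT 1, 2D WT 3, 2D dSAP 1 and 2D dSAP 3. On matrigel BRCA1 alone was called, higher in dSAP at 108, 106 and 106 CPM against 87.6, 86.4 and 85.5 CPM in WT (0.30 ± 0.05; edgeR adjusted p = 0.00021; 5.45% of all genes were higher; 3 higher and 3 lower without the odd library, against 13.1% and 14.1%). The median of the members was 0.02.

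The dSRF line had the lowest summed level of the members in plates. There 39 members fell and 2 rose, against 31.5% of all genes that fell and 34.5% that rose (66% called in all). The median difference was -0.76, against 0.02 over all genes. With the odd library left out, 45 fell and 2 rose (34.7% and 37.3% of all genes). In 45 members the dSRF libraries lay below all Control libraries (35.8% of all genes) and in 2 above. By role, 9 of 11 licensing genes fell, 5 of 6 of helicase activation, 6 of 8 of the polymerases and primase, 7 of 10 of the clamp, RPA and ligation group, 3 of 4 of nucleotide supply, both E2F activators, all 3 at fork chromatin and 4 of 6 of homologous repair. The histone share was 0.0919% to 0.0971% of counts. Other features of the line moved with this contrast: the 4 markers listed as low in MDA-MB-231 (ESR1, PGR, CDH1 and EPCAM) summed to 165 to 183 TPM in 2D dSRF and 104 to 265 TPM in 3D dSRF, against 25.6 to 52.2 TPM in the other groups, with EPCAM the main part. Their part in the result was not tested.

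E2F2 read 5.15, 5.66 and 6.72 CPM in dSRF, far below its Control level given above (-1.54 ± 0.20, edgeR adjusted p = 1.22e-06). E2F1 read 63.5, 55.7 and 65.2 CPM, all below its Control libraries (-0.87 ± 0.19). Both activators were therefore at their lowest in plates in this line. RRM1 read 251, 252 and 256 CPM in Control and 107, 109 and 120.1 CPM in dSRF (-1.18 ± 0.20, edgeR adjusted p = 5.3e-05). TK1 read 49.98, 53.6 and 55.9 CPM (-1.17 ± 0.28) and TYMS 120.4, 124 and 130.2 CPM (-0.78 ± 0.15), both well below every Control library. RRM2 read 80.6, 84.3 and 86.04 CPM, below each Control library, but its difference was not called with all libraries (-0.77 ± 0.36, edgeR adjusted p = 0.0644) and was called without the odd one (edgeR adjusted p = 8.55e-14).

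Helicase genes followed. GINS2 read 21.9, 19.5 and 18.7 CPM in Control and 7.66, 8.18 and 8.79 CPM in dSRF (-1.29 ± 0.26). GINS3 read 27.4, 24.5 and 25.3 CPM and 12.6, 13.3 and 13.8 CPM (-0.96 ± 0.10, edgeR adjusted p = 7.96e-08). CDC45, the partner of GINS in the active helicase, read 22.1, 20.2 and 23.2 CPM and 10.3, 10.6 and 10.7 CPM (-1.05 ± 0.29). In these genes all dSRF libraries lie well below Control. GINS4 was the exception, at 12.9, 13.3 and 12.9 CPM against 14.04, 13.9 and 12.7 CPM, with overlapping libraries (-0.06 ± 0.21, edgeR adjusted p = 0.829). POLE read 50.05, 45.8 and 48.9 CPM (-1.21 ± 0.17), LIG1 27.3, 24.04 and 25.7 CPM (-0.92 ± 0.10) and PCNA 60.1, 65.8 and 67.7 CPM against 119.9, 117 and 118 CPM in Control (-0.87 ± 0.14). CHAF1A, the large subunit of the histone chaperone CAF-1, read 56.03, 54.9 and 53.3 CPM in Control and 32.4, 31.9 and 33.2 CPM in dSRF (-0.75 ± 0.21). None of these 4 overlaps between the lines.

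The repair genes split in this line. RAD51AP1, which promotes strand pairing in homologous repair, read 29.3, 26.5 and 29.7 CPM in Control and 11.97, 11.04 and 11.6 CPM in dSRF (-1.31 ± 0.25, edgeR adjusted p = 0.000133). FANCD2 read 20.7, 21.5 and 21.7 CPM (-1.06 ± 0.17), and EXO1, the nuclease that resects break ends, read 27.99, 28.7 and 30.7 CPM and 13.1, 16.4 and 14.7 CPM (-0.98 ± 0.32). These 3 fell with no overlap between the lines. BRCA1 and BRCA2 did not take part: BRCA1 read 63.8, 66.8 and 64.2 CPM, overlapping Control (0.03 ± 0.05, edgeR adjusted p = 0.604). BRCA2 read 67.4, 69.1 and 68.8 CPM, slightly below Control (-0.13 ± 0.07, edgeR adjusted p = 0.11, and 0.0152 without the odd library).

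RPA2 and POLA2 rose in 2D dSRF. RPA2, the middle subunit of RPA and the one phosphorylated in the damage response, read 63.4, 64.1 and 69.3 CPM in Control and 125, 135 and 123 CPM in dSRF, far above Control (0.96 ± 0.07, edgeR adjusted p = 2.09e-10). Against WT, at 53.6, 56.3 and 52.7 CPM, the difference was 1.24 ± 0.07. Its partner RPA3 read 26.5, 25.9 and 27.97 CPM, overlapping Control (-0.03 ± 0.09, edgeR adjusted p = 0.752). POLA2, the regulatory subunit of polymerase alpha whose promoter is printed above, read 24.5, 24.1 and 25.9 CPM in Control and 28.1, 31.2 and 30.2 CPM in dSRF (0.26 ± 0.07, edgeR adjusted p = 0.00386). Its catalytic partner POLA1 read 52.97, 53.4 and 55.6 CPM and fell (-0.18 ± 0.06). By these counts the subunits of RPA and of polymerase alpha differed in direction within this line. For POLA2 the rise is small, and the gene shares 2012 exon bases with another gene on its strand. Its counts can include reads from that gene. In TPM its ranges nearly meet, at 21.999, 18.5 and 21.6 in Control and 26.5, 25.2 and 22.012 in dSRF.

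Set against WT in plates, dSRF was lower in 21 members and higher in 5 (30.4% and 33.6% of all genes), with a median of -0.34. The counts were 34 lower and 8 higher without the odd library (70.7% of all genes called, 36.8% higher), and 17 in all without 2D dSRF 1. The 5 higher members were RPA2, BRCA1 (0.70 ± 0.05), POLA2 (0.54 ± 0.07), BRCA2 (0.24 ± 0.07) and MCM4 (0.23 ± 0.08). The lowest were RAD51AP1 (-1.04 ± 0.25) and RRM1 (-0.98 ± 0.20), at 217, 217 and 227 CPM in WT against 107, 109 and 120.1 CPM in dSRF. LIG1 fell (-0.39 ± 0.10), but on the TPM values its difference was 0.01 and 0.02 with pseudocounts of 1 and 0.1. On those values the median of all genes moved up by 0.151 and 0.183 in this comparison, and 38.9% of the called members were higher with a pseudocount of 1.

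**Figure D4:**
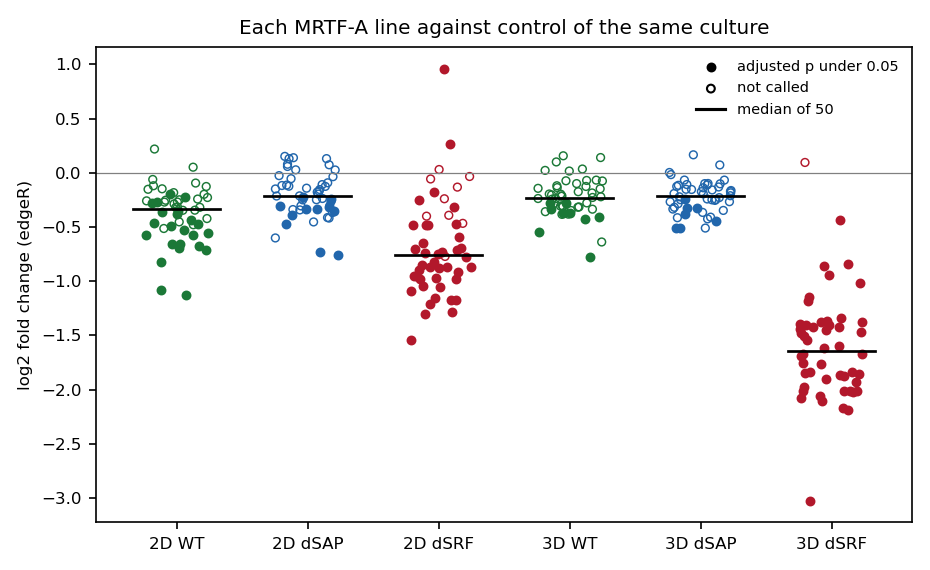
log2 fold change of the 50 members (points) in each MRTF-A line over Control of the same culture, filled where called, with the median as a line. In plates the medians are -0.33 for WT, -0.21 for dSAP and -0.76 for dSRF, and on matrigel they are -0.23, -0.22 and -1.64.

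On matrigel WT and dSAP again lay below Control. In WT 9 members fell and none rose (17% of all genes fell and 18% rose; median -0.23), and in dSAP 7 fell and none rose (13.1% of all genes fell, 29.6% called in all; median -0.22). Both shares are near the background with all libraries, and without the odd one they were 36 of 50 (24.3% of all genes fell) and 35 of 50 (20.7%). Without 3D dSRF 2 the counts were 14 and 11. Libraries did not overlap for 38 members lower in WT (28.5% of all genes) and 36 lower in dSAP (25.5%). Called in both lines were E2F2, BRCA1, BRCA2, POLA1, MCM4 and RPA3, while MCM2, PCNA and POLA2 were called in WT and FANCD2 in dSAP. Both lines are set against the same Control libraries.

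E2F2 read 26.8, 27.7 and 26.5 CPM in WT and 29.1, 32.6 and 35.7 CPM in dSAP, against 44.02, 49.6 and 44.99 CPM in Control (-0.77 ± 0.18 and -0.51 ± 0.17). BRCA1 read 126, 128 and 125 CPM in Control, 87.6, 86.4 and 85.5 CPM in WT and 108, 106 and 106 CPM in dSAP (-0.55 ± 0.05, edgeR adjusted p = 1.89e-08, and -0.24 ± 0.05). The 3 lines are fully separated for this gene, WT lowest. POLA1 read 128, 134 and 133 CPM in Control, 100.4, 99.6 and 98.7 CPM in WT and 94.1, 92.5 and 90.6 CPM in dSAP (-0.40 ± 0.06 and -0.51 ± 0.06, edgeR adjusted p = 9.62e-07). BRCA2 read 124, 128 and 123 CPM, 96.2, 108 and 106 CPM and 97.2, 95.4 and 94.2 CPM in the same order (-0.27 ± 0.07 and -0.38 ± 0.07). For POLA1 and BRCA2, Control is above both lines. PCNA read 182, 189 and 183 CPM in WT against 230.1, 260.3 and 228 CPM in Control (-0.37 ± 0.13, edgeR adjusted p = 0.037). MCM6, called in plates, read 174, 205 and 179 CPM in Control and 163, 164 and 164 CPM in WT and was not called (-0.19 ± 0.10, edgeR adjusted p = 0.145).

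On matrigel the dSRF line lay below Control and WT in nearly all members. There 49 of 50 members fell and none rose, against 31.3% of all genes that fell and 66.4% called in all, with a median of -1.64 (0.02 over all genes). With the odd library left out, 49 fell and 1 rose (72.8% of all genes called), with a median of -2.10. All libraries of 3D dSRF, the odd one included, lay below all 3D Control libraries for 49 members (28.8% of all genes). Against WT 48 fell and 1 rose (31.6% and 34.2% of all genes; median -1.47), and without the odd library 49 fell and 1 rose (36.3% and 36.5%). The histone share was 0.187% in the library labelled 3D dSRF 1, 0.0565% in 3D dSRF 2 and 0.0624% in 3D dSRF 3, against 0.463% to 0.513% in 3D Control.

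The 3 libraries are given in their order, the odd one first. E2F2 read 8.59, 3.74 and 4.49 CPM, against 44.02, 49.6 and 44.99 CPM in 3D Control (-3.03 ± 0.20, edgeR adjusted p = 6.78e-11; -3.49 without the first library). E2F1 read 70.9, 31.7 and 31.1 CPM against 178, 185 and 179 CPM (-2.01 ± 0.20). Even the highest dSRF library lies far below the lowest Control library in both. RRM2 read 165, 34.3 and 38.9 CPM against 307, 333 and 327 CPM (-2.01 ± 0.36; -3.14 without the first), the member with the widest gap inside the group. TK1 read 64.5, 18.5 and 19.3 CPM against 155, 157 and 152 CPM (-2.17 ± 0.29; -3.03 without the first). RRM1 read 148, 61.9 and 63.6 CPM against 317, 343 and 317 CPM, and TYMS 123, 63.2 and 66.7 CPM against 299, 311 and 306 CPM. In these supply genes the first library lies between Control and the other dSRF libraries.

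Among helicase genes, MCM4 read 109, 86.4 and 81.3 CPM against 249.9, 278 and 260.0 CPM (-1.51 ± 0.08, edgeR adjusted p = 5.21e-12). MCM6 read 84.4, 58.2 and 62.1 CPM against 174, 205 and 179 CPM (-1.45 ± 0.10). CDC45 read 20.3, 5.61 and 6.71 CPM against 42.7, 48.3 and 46.3 CPM (-2.06 ± 0.28; -2.89 without the first library). In MCM4 the 3 libraries lie close together, in CDC45 they do not. CDT1 read 24.7, 8.44 and 7.79 CPM against 47.1, 51.6 and 52.3 CPM, GINS2 11.5, 3.58 and 3.85 CPM against 23.1, 27.1 and 27.4 CPM and ORC1 14.8, 6.30 and 6.75 CPM against 27.5, 26.7 and 30.9 CPM. GINS4, which overlapped between Control and dSRF in plates, read 16.1, 7.74 and 6.11 CPM and fell here (-1.84 ± 0.20).

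At the fork, LIG1 read 26.3, 18.1 and 20.9 CPM against 89.1, 87.9 and 99.7 CPM (-2.08 ± 0.10, edgeR adjusted p = 6.59e-13). POLE read 62.5, 31.9 and 31.4 CPM against 151, 150.4 and 179 CPM (-1.93 ± 0.17; -2.35 without the first library). PCNA read 84.96, 46.9 and 49.99 CPM against 230.1, 260.3 and 228 CPM (-1.98 ± 0.14; -2.31 without it). All 3 genes are lowest in the second and the third library. PRIM1 read 11.001, 3.58 and 3.06 CPM against 19.02, 19.9 and 21.7 CPM (-1.76 ± 0.28; -2.61 without the first), CHAF1A 43.7, 17.5 and 18.3 CPM against 76.6, 92.2 and 90.1 CPM (-1.69 ± 0.21; -2.27) and UHRF1 156, 44.7 and 47.04 CPM against 248, 290.4 and 255 CPM (-1.68 ± 0.30; -2.53). The first library is the highest of its group in each.

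Of the repair genes, EXO1 read 27.5, 7.26 and 7.20 CPM against 58.9, 66.6 and 67.6 CPM (-2.18 ± 0.31; -3.16 without the first library) and RAD51AP1 15.4, 5.77 and 4.93 CPM against 34.97, 41.7 and 37.2 CPM (-2.11 ± 0.25; -2.83). FANCD2 read 24.2, 11.4 and 11.9 CPM against 59.1, 66.2 and 68.3 CPM. BRCA1 and BRCA2, which were not called in 2D dSRF, fell on matrigel. BRCA1 read 52.6, 47.1 and 50.04 CPM against 126, 128 and 125 CPM (-1.34 ± 0.05, edgeR adjusted p = 1.36e-14), and BRCA2 52.3, 42.02 and 41.1 CPM against 124, 128 and 123 CPM (-1.46 ± 0.07). For BRCA1 the odd library lies close to the other libraries of its group.

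RPA2 was the 1 member not called in 3D dSRF against Control. It read 85.3, 99.9 and 104 CPM against 90.005, 95.99 and 85.02 CPM, overlapping (0.10 ± 0.07, edgeR adjusted p = 0.208), and without the first library it was called as higher (0.18, edgeR adjusted p = 0.00512). RPA3 read 24.5, 17.6 and 19.3 CPM against 26.9, 29.5 and 26.7 CPM, the smallest fall (-0.43 ± 0.09). POLA2, higher than Control in plates, read 25.5, 23.01 and 23.4 CPM against 41.6, 40.5 and 47.1 CPM and fell (-0.84 ± 0.07). By mean TPM, RPA2 came behind only TYMS among the 50 members in this group. It stood at 119.8 ± 17.1 TPM, against 140.3 ± 50.2 for TYMS and 116 ± 34.5 for PCNA, and these 3 means do not differ beyond their spread. They include the odd library, where by CPM TYMS and PCNA were highest in the group and RPA2 lowest. For PCNA the libraries held 155.7, 93.1 and 99.3 TPM. The order is thus one of group means only, not of each library.

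The odd library was not a scaled copy of its group. Its ratio to the mean of the other 2 libraries ran over the members from 0.834 for RPA2 to 4.53 for RRM2, with a median of 2.07 against 0.99 over all genes. It was above 1 for 49 members and 2 or more for 29. The ratio was 4.50 for MCM10, which starts the helicase, 3.804 for EXO1 and 3.44 for BLM, the helicase that dissolves joined DNA molecules, and only 1.08 for BRCA1, 1.10 for POLA2 and 1.17 for POLA1. Relative to the plate culture of the same line, 41 members in this library lay above all 3 libraries of 2D dSRF (35.8% of all genes), 6 below (41.3% of all genes) and 3 within. In 3D dSRF 2 instead 49 lay below, and in 3D dSRF 3 all 50, against 43.3% and 42.2% of all genes. Over all genes the log2 CPM of the odd library correlated at 0.971 with the 2D dSRF mean. This was no higher than the 0.972 of 3D dSRF 2 and the 0.974 of 3D dSRF 3. With the other libraries of the group 3D dSRF 2 correlated at 0.976, 3D dSRF 3 at 0.980 and the odd library at 0.952. Its MRTFA level of 664 CPM compares with 4840 and 4857 CPM in the others, and what part that has in the result was not tested.

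**Figure D5:**
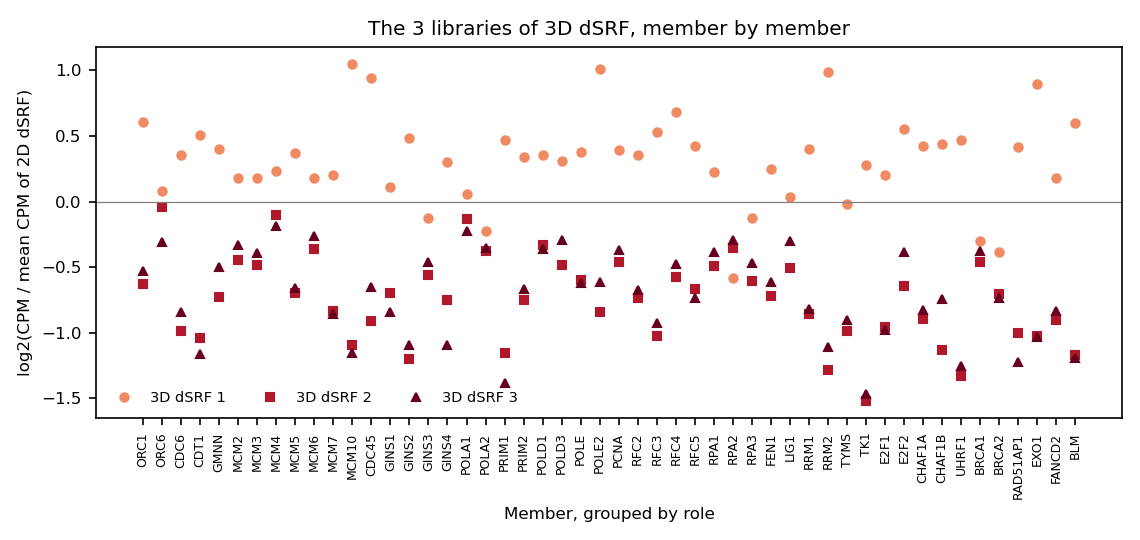
log2 of each member's CPM in the 3 libraries of 3D dSRF over its mean CPM in 2D dSRF (vertical axis; members along the horizontal axis by role). In replicate 1, 41 members lie above all 2D dSRF libraries, while in replicates 2 and 3, 49 and 50 lie below them.

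Whether a line differed from Control by the same amount in both cultures was tested directly, as a difference of log2 fold changes (3D minus 2D). For dSRF it was called in 34 members, lower on matrigel in all 34 (14.6% of all genes were lower), with a median of -0.93. The count was 50 without the odd library (24% of all genes were lower; median -1.40) and 25 without 3D dSRF 2. A fit on only the libraries compared called fewer still, as given in the closing section. The largest was that of GINS4 (-1.79 ± 0.29), whose level differed from Control in 3D and not detectably in 2D. Among others, not an unbroken ranking, it was -1.48 ± 0.27 for E2F2 and -1.37 ± 0.07 for BRCA1 (edgeR adjusted p = 4.4e-11). It was -1.33 ± 0.10 for BRCA2, -1.25 ± 0.12 for MCM4, -1.20 ± 0.08 for POLA1 and -1.11 ± 0.10 for POLA2. Of these named members, GINS4, BRCA1 and BRCA2 were not called against Control in plates. MCM2 had the smallest, -0.38 ± 0.15, not called (edgeR adjusted p = 0.0564; 5.43e-07 without the odd library).

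For WT and dSAP the effects were not shown to differ between cultures. By edgeR no member was called for WT (4 had an unadjusted p under 0.05; DESeq2 called 1; 9.18% of all genes were called) and none for dSAP (2 had an unadjusted p under 0.05; DESeq2 called 0; 2.34% of all genes). The medians of the members were 0.14 and -0.02. Without the odd library 15 were higher and 1 lower for WT (12.7% and 11.2% of all genes) and 2 and 2 for dSAP (5.94% and 5.46%, near the members' share), and for WT the count was 1 without 3D Control 3 or 3D dSRF 2. The largest for WT was that of UHRF1, 0.81 ± 0.41 (edgeR adjusted p = 0.263; 3.85e-06 without the odd library).

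Neighbouring parts of the pathway were followed in 5 further lists. Their counts are to be read beside the share of all genes, which in dSRF against Control was 31.5% that fell and 34.5% that rose in plates, and 31.3% and 35.1% on matrigel. Of 30 other replication factors, 17 fell and 2 rose in 2D dSRF against Control, and 25 fell and 1 rose in 3D. DUT, which clears dUTP, fell in both (-0.98 ± 0.10 and -1.69 ± 0.10). POLD4, the smallest subunit of polymerase delta, rose in both (2.26 ± 0.18 and 2.88 ± 0.19) while POLD2 fell in plates (-1.54 ± 0.14). In 2D WT 11 of this list fell and none rose (19.2% of all genes fell), and in 3D Control against 2D Control 17 rose and 1 fell (23% and 24.4% of all genes). Of 26 other homologous repair factors, 13 fell and 1 rose in 2D dSRF, 24 fell and 2 rose in 3D dSRF, and 20 rose and 1 fell in 3D Control against 2D. RAD54L, a DNA motor protein of homologous repair, fell in dSRF in both cultures (-0.95 ± 0.16 and -2.23 ± 0.16). BRIP1, the helicase partner of BRCA1, rose in 2D WT (1.23 ± 0.18), unlike BRCA1 itself.

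The regulators were mixed. Of 11 other E2F and pocket protein genes, 6 fell and 3 rose in 2D dSRF and 7 fell and 2 rose in 3D dSRF. E2F5, a repressor-type E2F, rose (0.91 ± 0.07 and 1.70 ± 0.08), while RBL2, which encodes the pocket protein p130, fell in plates (-0.56 ± 0.06) and E2F8, an atypical repressor, fell on matrigel (-2.55 ± 0.21). Of 11 G1/S cyclins and S-phase kinases, 5 fell and 2 rose in 2D dSRF, and 9 fell and none rose in 3D dSRF. For lists of 11 genes, the counts of both lists in 2D dSRF are not far from the shares of all genes given above. CCNA2, cyclin A, fell in both (-1.84 ± 0.28 and -2.32 ± 0.28), and CCNE1, cyclin E, rose in 3D Control over 2D (1.33 ± 0.12).

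Mitosis genes parted from the members between cultures. Of 25, all fell in dSRF in plates (median -1.56) and on matrigel (median -2.24), 12 fell in 2D WT (19.2% of all genes) and 5 in 2D dSAP (15.4%), the latter near the background. In 3D Control against 2D Control, however, none of the 25 rose and 4 fell (23% and 24.4% of all genes; median -0.15; 8 rose and 13 fell without the odd library), where 36 of the 50 members rose. CCNB1, cyclin B, was lower on matrigel (-0.70 ± 0.09), as was AURKA, a spindle kinase (-0.56 ± 0.10). In WT, 9 of the 25 rose on matrigel and none fell (24.4% of all genes rose). All these counts are from edgeR over all genes.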

How the data were processed

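RNA-seq of 24 libraries (3 in each of 8 groups) was used as gene tables. Per the submitters' processing notes, FastQC, Salmon (given as 11.3) and hg38 were used, and none of the sources used here names the annotation. The authors deposited estimated counts per gene and TPM (abundance scaled for transcript length and depth). Per the labels' protocols, total RNA was depleted of ribosomal RNA and sequenced with strand kept, while the molecule field names polyA RNA.

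Estimated counts were rounded, filtered by filterByExpr and TMM-scaled, and fitted with edgeR 4.0.16 (R 4.3.3; robust quasi-likelihood, 8 groups, 16 residual degrees of freedom, 17 comparisons), with Benjamini-Hochberg adjustment over 14986 genes at 0.05. The procedure was tested on simulated data. Total counts were 13968773 to 23023300 (median 18154380), with a biological coefficient of variation of 13.1%. Groups were taken from titles. Symbols came from a gene name table, positions from GENCODE and promoters from RefSeq (Python 3.11.15). The members and lists were chosen with earlier results of these data known. Any of the 50 members could be named. Values in all libraries were given chiefly for the member of each role with the lowest p against Control, and for up to 4 called members with the largest changes in each of the comparisons with Control and between cultures. Up to 3 genes with the lowest p were taken from each other list. Alternatives were RLE scaling, no filter, DESeq2 1.42.0, limma 3.58.1 on log2 TPM (pseudocount 1 or 0.1), the replicate number as a block, fits restricted to the compared libraries, and leaving out each library. RRM2, POLD1, PRIM1, FEN1, CHAF1B, POLA2 (2012 bases), POLD3 and BRCA1 share exon bases with other genes on their own strand, so their counts can include reads from those genes. Results for some genes are not reported here.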

Additional observations from a re-analysis of the deposited data

Results flagged for a closer look

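The effect of dSRF against Control differed between the cultures in 34 members by edgeR's test of the difference itself, each lower on matrigel. Among the members named by the lowest p, the difference was -1.37 for BRCA1, -1.20 for POLA1, -1.33 for BRCA2, -1.25 for MCM4 and -1.11 for POLA2 on the log2 scale. All 3 libraries of 3D dSRF enter these values. Without the library labelled 3D dSRF 1 the count was 50, and without 3D dSRF 2 it was 25. What part that library's low MRTFA level has in the result was not tested.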

How the results depend on the processing

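Of 372 calls over members and comparisons, RLE scaling lost 0, DESeq2 1, TPM with pseudocounts of 1 and 0.1 lost 30 and 29, no filter 46 and fits on only the libraries compared 30. LIG1 in 2D dSRF against WT reversed on TPM (0.0140 and 0.0152 with pseudocounts of 1 and 0.1, against -0.39). Only the libraries compared called 44 members in 2D WT, 28 in 2D dSAP, 35 in 3D WT and 38 in 3D dSAP against Control; against WT, 28 in 2D dSAP, 44 in 2D dSRF and 14 in 3D dSAP; 0 for 3D against 2D dSRF; and 17, 2 and 17 for the culture differences of WT, dSAP and dSRF. No filter called 5 in 2D dSAP against Control and 1 against WT. TPM called 7 and 7 for the former, 12 and 11 for the latter, and 1 and 1 for the culture difference of WT, where DESeq2 called 1. Leaving out 1 library gave 14 to 43 called in 2D WT, 3 to 30 in 2D dSAP, 37 to 47 in 2D dSRF, 8 to 36 in 3D WT, 5 to 35 in 3D dSAP and 49 to 50 in 3D dSRF against Control. Against WT it gave 1 to 31 in 2D dSAP, 17 to 42 in 2D dSRF, 1 to 6 in 3D dSAP and 48 to 50 in 3D dSRF. For 3D against 2D it gave 30 to 49 in Control, 41 to 49 in WT, 25 to 50 in dSAP and 5 to 49 in dSRF, and for the culture differences 0 to 16, 0 to 4 and 25 to 50. The share of all genes called moved too. In 2D WT against Control it was 39.3% with all libraries and 51.9% without 3D dSRF 1, and in 3D dSAP against Control 29.6% and 44%. A change in these counts is thus not particular to the members. Apart from the narrower spread without 3D dSRF 1, the cause of the changes was not tested.

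Replicate numbers did not pair the libraries: same-numbered libraries had median correlations of -0.0251 to -0.0086 (0.00389 for different numbers), and 7 of 24 correlated best with their own number. With the replicate block 22, 11 and 41 members were called in 2D WT, dSAP and dSRF against Control and 33 for the culture difference of dSRF, and no count moved by more than 1.5 times. The 3 libraries per group limit the precision, and the lowest count of a member in any library was 62.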
